A study of Mus musculus with 10 samples.

Results

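The enzymes that build the lipids of a squamous epithelium were followed by their transcripts in whole mouse esophagus. The set held 38 genes of 54446 in the deposited table, chosen by symbol: 6 elongases, 6 desaturases, 5 ceramide synthases, and enzymes of fatty acid, sphingolipid, acylceramide and triglyceride metabolism. All 38 symbols were found, each at 1 gene identifier. The tissue came from wild-type C57BL/6 mice that received either OXA (oxazolone, an ethoxymethylene-phenyl-oxazolinone), a chemical allergen used to model eosinophilic esophagitis, or the vehicle alone. There were 5 OXA libraries (C1 and D1 to D4) and 5 vehicle libraries (A1 to A5), named as in the sample titles. Both groups carried the wild-type genotype, and age, sex, dose and schedule were not among the labels. Nothing states that each library came from a separate mouse, and a p-value therefore reflects library-to-library spread, which may be technical.

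As background, fatty acid synthase makes palmitate from malonyl-CoA, elongases lengthen it, and desaturases add double bonds. Serine palmitoyltransferase joins palmitate to serine, ceramide synthases attach a further fatty acid, and a desaturase completes ceramide, which can become sphingomyelin or glucosylceramide. In stratified epithelia, ceramides with very long acyl chains are exported by differentiated cells and help to waterproof the surface. Triglyceride synthesis uses the same fatty acids and stores them in lipid droplets.

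Libraries held 3675479 (D2) to 12108822 (A4) reads. Krt4, Krt13, Krt78, Sprr3, Lor and Cnfn, the 6 markers of differentiated squamous epithelium, were present in every library and took 5.93% ± 1.90 of reads in OXA libraries and 12.1% ± 1.95 in vehicle libraries (SD, n = 5 each). Krt4, Lor and Krt78 were called lower, while Krt13, Sprr3 and Cnfn were not (adjusted p = 0.215, 0.0791 and 0.158). Most of this share was Krt4 and Krt13. Krt4 averaged 143886 ± 60900 normalized counts in OXA and 399541 ± 101198 in vehicle. Krt13 averaged 176009 ± 54453 in OXA and 306900 ± 65942 in vehicle. D2 had the highest share among OXA libraries, 8.83%, against 3.77% to 6.52% in the other 4. A5 and A3 had the highest shares among vehicle libraries, 15.2% and 12.8%. Basal epithelium markers took 0.372% to 0.755% in OXA and 0.439% to 0.542% in vehicle, with 2 of 6 higher and 2 lower. This sum covers opposite changes. Krt14 averaged 11260 ± 5139 in OXA and 2357 ± 462 in vehicle, and Itga6 was also higher. Krt15 averaged 3295 ± 1277 in OXA and 12538 ± 1754 in vehicle, and Col17a1 was also lower. Krt5 and Trp63 were not called. Leukocyte markers took 0.0857% ± 0.0155 of reads in OXA libraries and 0.0249% ± 0.00320 in vehicle libraries, with 7 of 8 higher. Fibroblast markers took 0.633% ± 0.133 in OXA and 0.397% ± 0.0413 in vehicle. In bulk tissue, fewer cells of a type and less RNA per cell cannot be told apart.

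Of the 38 genes, 37 passed a filter of a mean of at least 5 normalized counts over the 10 libraries. Lower transcript in OXA was called for 12 of these and higher transcript for 5, while 20 were not called. Calls are Benjamini-Hochberg adjusted p under 0.05 from limma over all 14712 genes tested. Over all tested genes 14.2% were called lower, 15.7% higher and 29.9% in either direction; higher genes made up 52.5% of these calls, or 65.4% when libraries were scaled to their totals. The members stood at 32.4% lower and 13.5% higher, with a median log2 fold change of -0.19 against -0.01 over all tested genes. Members were chosen with earlier results of these data known, so these shares are a description. In 10 of the 37 tested members every OXA library lay below every vehicle library, and in 3 of the 37 every OXA library lay above. Over all 14712 tested genes the same held for 1530 (10.4%) and 1765 (12%). Lower calls came from every step other than ceramide use and release. Higher calls came from desaturation, ceramide backbone synthesis, the ceramide synthases and triglyceride synthesis.

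**Figure D1:**
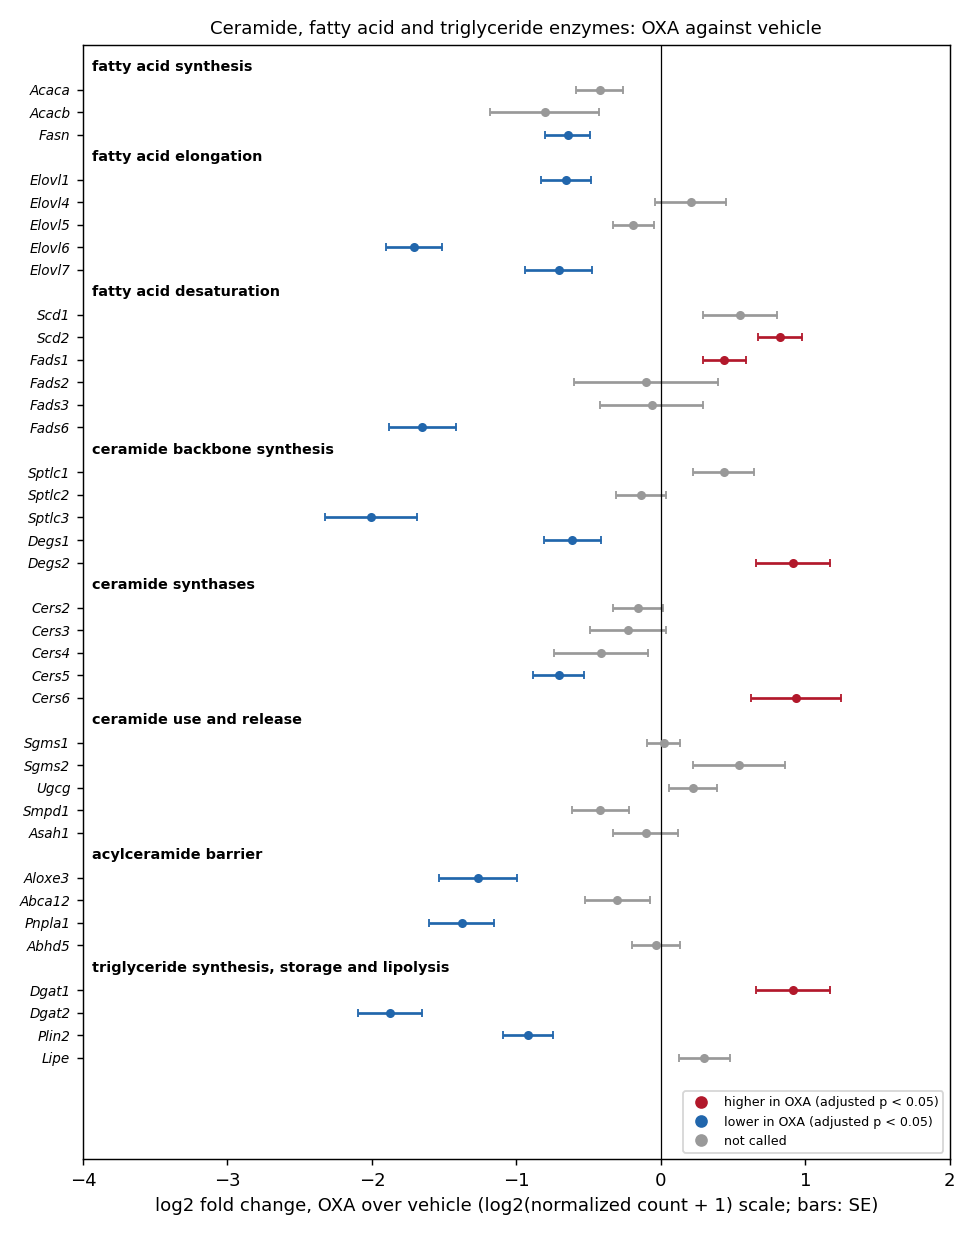
Log2 fold change, OXA over vehicle, of the 37 tested genes grouped by pathway step. Points are limma estimates on the log2(normalized count + 1) scale and bars are standard errors (n = 5 per group); colours mark the 12 genes called lower, the 5 called higher and the 20 not called. Sptlc3, Dgat2, Elovl6 and Fads6 lie farthest to the left.

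Of the 3 genes of fatty acid synthesis, Fasn alone was called lower. Fasn (fatty acid synthase; ENSMUSG00000025153.9, chromosome 11, 120805546 to 120824547, GRCm38) had 189, 167, 228, 295 and 214 normalized counts in OXA libraries C1 and D1 to D4, against 373, 349, 346, 300.2 and 318 in vehicle libraries A1 to A5. The ranges did not overlap, with D3 closest to the vehicle libraries. Fasn fell by 0.65 in log2 units (SE 0.16, adjusted p = 0.00667). Acaca, the cytosolic acetyl-CoA carboxylase that supplies malonyl-CoA, averaged 93.8 ± 15.1 in OXA and 126 ± 15.6 in vehicle and was not called (-0.42 ± 0.16, adjusted p = 0.0636). Acaca passed in DESeq2 (-0.43, adjusted p = 0.0465) and, in limma, without D4 (adjusted p = 0.0279). Acacb, the mitochondrial form whose malonyl-CoA restrains fatty acid oxidation, averaged 26.4 ± 14.5 in OXA and 42.4 ± 11.8 in vehicle (-0.80 ± 0.38, adjusted p = 0.126).

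Of the elongases, Elovl6 showed the largest difference and Elovl1 and Elovl7 were also lower. Elovl6 (ENSMUSG00000041220.10, chromosome 3, 129532355 to 129638795), which extends palmitate to stearate, had 211, 142, 302, 232 and 145 normalized counts in OXA libraries, against 580.4, 688, 721, 648 and 625 in vehicle libraries. The highest OXA library, D2, stood well under the lowest vehicle library, A1. Elovl6 fell by 1.71 ± 0.19 in log2 units (SE; adjusted p = 2.56e-05). Elovl1, which makes saturated very long chains for sphingolipids, had 626, 458, 817, 526 and 533 in OXA libraries, against 810.5, 805, 982, 810.2 and 1229 in vehicle libraries (-0.65 ± 0.17, adjusted p = 0.0116). Of the OXA libraries D2 alone entered the vehicle range. Exons of Elovl1 overlap Cdc20, a mitotic gene on the opposite strand, which averaged 111 ± 19.0 in OXA and 13.8 ± 3.11 in vehicle; without a stated strand setting their reads cannot be told apart. Elovl7, an elongase of long saturated chains, had 545, 294, 793, 438 and 594 in OXA libraries, against 760.1, 695, 1005, 691 and 1047 in vehicle libraries (-0.71 ± 0.23, adjusted p = 0.0322). D2 again lay within the vehicle range. The Elovl7 call was lost when C1, D1, D3, A3 or A5 was left out (adjusted p = 0.0517 to 0.0795).

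The remaining elongases did not pass. Elovl4, which makes the ultra-long chains of acylceramides, had 3219.7, 2069, 5062, 2437 and 4906 normalized counts in OXA libraries, against 2477, 2507, 3359.7, 2620.1 and 3609 in vehicle libraries. Its OXA values surrounded the vehicle range, with D2 and D4 above it and D1 and D3 below it (0.21 ± 0.24, adjusted p = 0.559). The 95% interval of the log2 change ran from -0.32 to 0.73. Elovl5, the elongase of polyunsaturated fatty acids, averaged 412 ± 67.7 in OXA and 467 ± 52.2 in vehicle (-0.19 ± 0.14, adjusted p = 0.334). Elovl3, known from sebaceous gland and brown fat, had no read in any of the 10 libraries, which allows up to 3.503 normalized counts per OXA library and 2.82 per vehicle library on average (3 reads, counting error only).

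Desaturases moved in both directions. Scd2 (ENSMUSG00000025203.5, chromosome 19, 44293676 to 44307164), a stearoyl-CoA desaturase that makes monounsaturated fatty acids, had 1363, 1391, 1242, 1903 and 1779.9 normalized counts in OXA libraries, against 1089, 838, 756, 804 and 821 in vehicle libraries. The lowest OXA library, D2, exceeded the highest vehicle library, A1, and Scd2 rose by 0.82 ± 0.15 (adjusted p = 0.00119). Its neighbour Scd1 averaged 512 ± 204 in OXA and 344 ± 119 in vehicle and was not called (0.55 ± 0.26, adjusted p = 0.121); it passed without A2, its highest vehicle library (adjusted p = 0.0401). The last 500 bases of annotated Scd1 and Scd2 transcripts shared no run of 36 bases with each other. Fads1, the desaturase that makes arachidonic acid, had 201, 185, 199, 273 and 259 in OXA libraries, against 175, 151, 157, 158 and 172 in vehicle libraries. The groups did not overlap, but D1 and A1 lay close (0.44 ± 0.15, adjusted p = 0.0346). The Fads1 call was lost without D3, D4, A2, A3 or A4 (adjusted p = 0.0642 to 0.0882).

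Fads6, a desaturase family member, had 22.1, 27.0, 19.9, 25.9 and 22.4 normalized counts in OXA libraries, against 94.5, 91.5, 50.7, 89.8 and 61.5 in vehicle libraries. The OXA libraries were tightly grouped and all under the lowest vehicle library, A3. Fads6 fell by 1.65 ± 0.23 in log2 units (adjusted p = 1.36e-04). Fads2, which acts before Fads1 on the same fatty acids, was near the floor with 2 to 13 reads per library. It averaged 5.95 ± 3.94 in OXA and 6.01 ± 2.57 in vehicle, and no difference was detectable at this depth. Fads3, which desaturates sphingoid bases, averaged 23.2 ± 9.13 in OXA and 23.3 ± 7.62 in vehicle (adjusted p = 0.914).

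**Figure D2:**
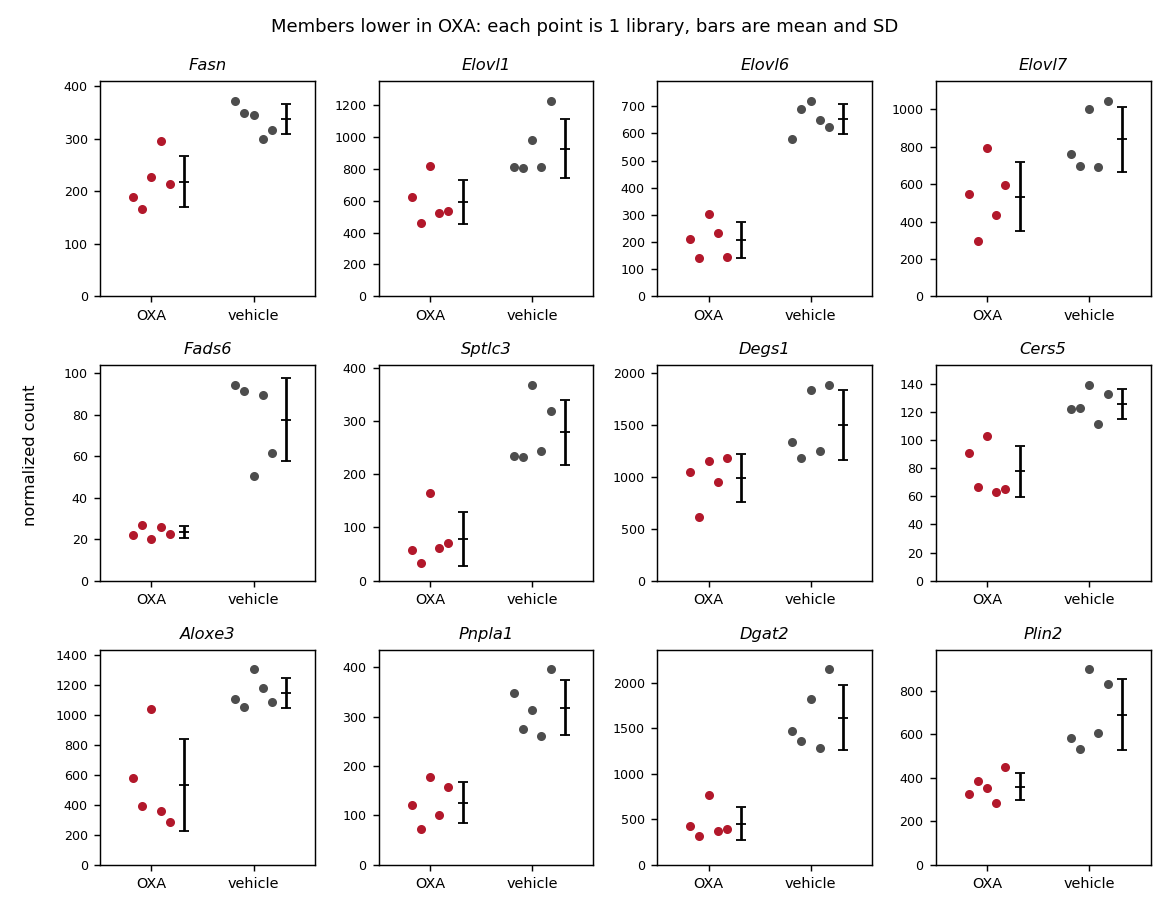
Normalized counts of the 12 genes called lower in OXA, by library (vertical axes start at 0; red points OXA, grey points vehicle; bars are mean and SD, n = 5). Only Elovl1 and Elovl7 have an OXA library within the vehicle range, and D2, the middle red point, is the highest OXA library in 8 of the 12 panels.

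Serine palmitoyltransferase, the committing enzyme of sphingolipid synthesis, differed by subunit. Sptlc3 (ENSMUSG00000039092.9, chromosome 2, 139493913 to 139637974), a catalytic subunit that broadens the chain lengths used, had 58.0, 33.4, 165, 62.2 and 70.2 normalized counts in OXA libraries, against 234, 233, 368, 243 and 319 in vehicle libraries. D2 stood apart from the other OXA libraries but still below every vehicle library. Sptlc3 fell by 2.01 ± 0.32 in log2 units (adjusted p = 3.85e-04). Sptlc2, the other catalytic subunit, averaged 526 ± 111 in OXA and 577 ± 111 in vehicle (-0.14 ± 0.18, adjusted p = 0.589). Sptlc1, the shared subunit, averaged 993 ± 297 in OXA and 724 ± 176 in vehicle (0.44 ± 0.21, adjusted p = 0.134) and passed without D1 (adjusted p = 0.0377) and with libraries scaled to their totals (0.57, adjusted p = 0.0294). Within each library the log2 ratio of Sptlc3 to Sptlc1 lay between -4.27 and -3.14 in OXA and between -1.62 and -1.18 in vehicle. This ratio does not depend on how libraries are scaled; the pair was chosen after its values were seen, and the ratio was not tested.

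The enzymes that finish the ceramide backbone went opposite ways. Degs1, the dihydroceramide desaturase, had 1043, 609.9, 1149.6, 948 and 1179.7 normalized counts in OXA libraries, against 1333, 1184, 1838, 1246 and 1886 in vehicle libraries. D4 and A2 were nearly level, so the gap between the groups was narrow (-0.61 ± 0.20, adjusted p = 0.0324). Without C1, D1, D3, A3 or A5 the Degs1 call was lost (adjusted p = 0.0501 to 0.0839). Degs2, which also hydroxylates dihydroceramide to make phytoceramide, had 73.3, 66.8, 145, 66.1 and 97.4 in OXA libraries, against 69.8, 39.8, 40.9, 34.8 and 45.8 in vehicle libraries. Only A1 reached the OXA range, and Degs2 rose by 0.92 ± 0.26 (adjusted p = 0.0157). Leaving out the shallow libraries A5, D2 and D4 together ended this call (0.61, adjusted p = 0.0929). Exons of Degs2 overlap Evl on the opposite strand, an actin regulator that averaged 74.4 ± 17.9 in OXA and 45.9 ± 7.62 in vehicle; here too the reads cannot be told apart.

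Among ceramide synthases, which attach the amide-linked fatty acid, the pair that prefers palmitoyl chains split. Cers5 had 90.8, 66.8, 103, 63.2 and 65.5 normalized counts in OXA libraries, against 122, 123, 139, 111 and 133 in vehicle libraries. All OXA libraries were lower, and Cers5 fell by 0.71 ± 0.18 in log2 units (adjusted p = 0.00810). Cers6 had 83.2, 59.7, 103, 69.0 and 159.6 in OXA libraries, against 35.95, 25.5, 65.3, 60.8 and 57.2 in vehicle libraries. D1 lay within the vehicle range and D4 far above it (0.94 ± 0.31, adjusted p = 0.0344). Without C1, D2, D4, A1 or A2 the Cers6 call was lost (adjusted p = 0.0574 to 0.0838). Cers3, the synthase of the ultra-long ceramides of skin, averaged 394 ± 164 in OXA and 436 ± 97.3 in vehicle (-0.23 ± 0.27, adjusted p = 0.552). Cers2, the very-long-chain synthase, and Cers4 were not called either (adjusted p = 0.531 and 0.363).

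None of the 5 genes that convert or release ceramide passed in limma, and the count was also 0 at an unadjusted p under 0.05, in edgeR and in DESeq2. Sgms1, the Golgi sphingomyelin synthase, averaged 839 ± 41.7 in OXA and 829 ± 69.2 in vehicle, with a 95% interval of the log2 change from -0.22 to 0.26. Sgms2, the plasma membrane form, averaged 41.9 ± 16.3 in OXA and 26.8 ± 5.97 in vehicle (0.54 ± 0.32, adjusted p = 0.217) and passed without D3 (adjusted p = 0.0299). Ugcg, glucosylceramide synthase, averaged 665 ± 172 in OXA and 557 ± 48.3 in vehicle (0.22 ± 0.17, adjusted p = 0.344). Smpd1, acid sphingomyelinase, averaged 393 ± 117 in OXA and 517 ± 104 in vehicle (-0.42 ± 0.20, adjusted p = 0.124) and passed without D2 (adjusted p = 0.0235). Asah1, acid ceramidase, averaged 79.9 ± 21.9 in OXA and 85.3 ± 19.1 in vehicle (adjusted p = 0.763).

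Within the acylceramide steps, Pnpla1 and Aloxe3 were lower while Abca12 and Abhd5 did not pass. Pnpla1 (ENSMUSG00000043286.12, chromosome 17, 28858411 to 28890609), the transacylase that makes acylceramide, had 122, 73.2, 177, 100.56 and 158 normalized counts in OXA libraries, against 347, 275, 313, 261 and 396 in vehicle libraries. The highest OXA library, D2, stayed under the lowest vehicle library, A4, and Pnpla1 fell by 1.38 ± 0.22 in log2 units (adjusted p = 4.19e-04). Of the 36-base runs at the ends of its annotated transcripts 18.1% also occur in other genes, among them AC160336.1, which averaged 451 ± 130 in OXA and 162 ± 77.8 in vehicle. Aloxe3, the epidermal lipoxygenase that acts after Alox12b on acylceramide, had 578, 393, 1039, 356 and 287 in OXA libraries, against 1106, 1048, 1303, 1179 and 1086 in vehicle libraries. D2 came within a small distance of A2, and the other 4 OXA libraries were far lower (-1.26 ± 0.27, adjusted p = 0.00308). Abca12, the transporter that loads glucosylceramide into lamellar granules, had 383, 233, 645, 257 and 386 in OXA libraries, against 428, 385, 473, 459.6 and 454 in vehicle libraries. D2 was the highest of all 10 libraries for Abca12, which was not called with it (-0.30 ± 0.23, adjusted p = 0.340) and was called without it (-0.51, adjusted p = 0.0354). Abhd5, the cofactor of Pnpla1 and of the triglyceride lipase Pnpla2, averaged 776 ± 154 in OXA and 791 ± 143 in vehicle (adjusted p = 0.907).

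The acyltransferases that complete triglyceride went opposite ways. Dgat2 (ENSMUSG00000030747.5, chromosome 7, 99153358 to 99182719), which uses newly made fatty acids, had 424, 316, 768, 367 and 397 normalized counts in OXA libraries, against 1474, 1366, 1825, 1281 and 2151 in vehicle libraries. Even D2, the highest OXA library, was well below A4, the lowest vehicle library. Dgat2 fell by 1.88 ± 0.22 in log2 units (adjusted p = 3.65e-05). Dgat1 (ENSMUSG00000022555.12, chromosome 15, 76501715 to 76511953), an unrelated enzyme for the same reaction, had 81.7, 107, 61.6, 148 and 78.2 in OXA libraries, against 31.8, 59.2, 42.9, 52.5 and 58.7 in vehicle libraries. Its lowest OXA library, D2, lay just above its highest vehicle library, A2 (0.92 ± 0.25, adjusted p = 0.0149). The log2 ratio of Dgat2 to Dgat1 within a library lay between 1.31 and 3.64 in OXA and between 4.53 and 5.53 in vehicle, a description of a pair chosen after its values were seen.

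Plin2, a coat protein of lipid droplets, had 325, 387, 355, 284 and 447 normalized counts in OXA libraries, against 580.4, 533, 898, 604 and 829.9 in vehicle libraries. No OXA library reached the vehicle range, and Plin2 fell by 0.92 ± 0.17 in log2 units (adjusted p = 0.00131). Lipe, hormone-sensitive lipase, averaged 73.4 ± 9.63 in OXA and 59.5 ± 7.91 in vehicle (0.30 ± 0.18, adjusted p = 0.218). Markers of adipocytes, which use several of these enzymes, took 0.0284% to 0.0529% of reads in OXA libraries and 0.0121% to 0.0204% in vehicle libraries. All 10 adipocyte markers had reads in some library. Of the 8 tested, Cfd, Fabp4 and Retn rose and Adig fell. Adipoq, Cidec and Adrb3 were not called (limma adjusted p = 0.0672, 0.0573 and 0.894). Plin1 averaged 20.7 ± 11.1 in OXA and 8.71 ± 4.59 in vehicle and was not called either (adjusted p = 0.0935). The largest part of the summed share was Fabp4, which averaged 1542 ± 175 in OXA and 715 ± 81.6 in vehicle. Sebaceous gland markers took 0.00660% to 0.00915% in OXA and 0.00884% to 0.0133% in vehicle. Of the 8, Mc5r and Awat1 had no read and 3 were tested, with 1 higher and 2 lower. Most of this share was a single gene, Mgst1, which averaged 381 ± 76.1 in OXA and 622 ± 174 in vehicle. The part of fat or gland cells in the lipid enzyme values was not tested.

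**Figure D3:**
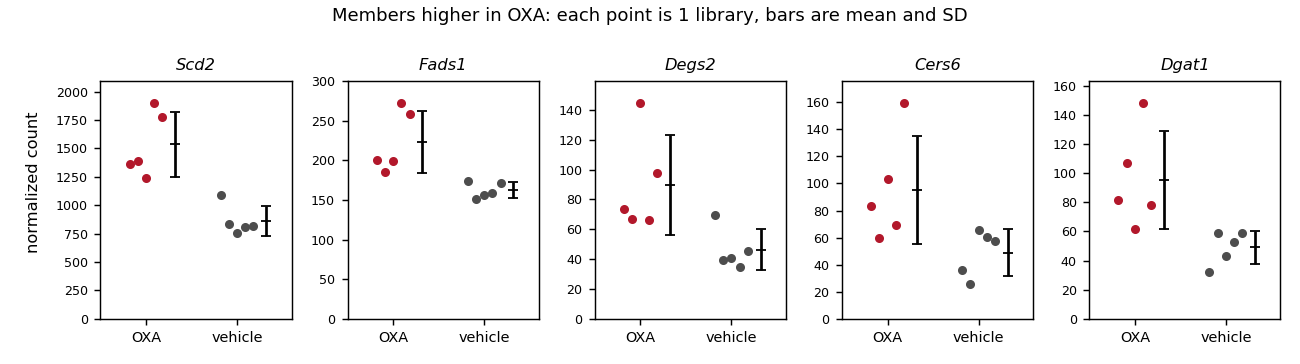
Normalized counts of the 5 genes called higher in OXA, by library (vertical axes start at 0; red points OXA, grey points vehicle; bars are mean and SD, n = 5). Scd2, Fads1 and Dgat1 have no overlap between groups, while Degs2 and Cers6 each have libraries of both groups in a shared range.

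Some libraries stood at the end of their group for many of the lower and uncalled enzymes. D2 was the highest OXA library for 8 of the 12 lower genes and for 10 of the 20 uncalled ones, and D1 was the lowest for 8 and 9 of them. For the 5 higher genes D3 was highest in 3, and D2 was highest in 1 and lowest in 2. How often D2 or D1 is extreme over all tested genes was not counted, and D2 has the fewest reads. Among vehicle libraries A3 and A5 were each highest for 5 of the 12 lower genes. D2, A3 and A5 are also the libraries with the highest shares of differentiated epithelium markers in their groups, and D1 has the lowest share in OXA. D1 also had the highest skeletal muscle marker share, 3.38%, against 0.906% to 2.48% in the other OXA libraries and 1.57% to 2.25% in vehicle libraries. Its smooth muscle share, 0.410%, was the highest in OXA, where the lowest was 0.171%; vehicle libraries held 0.245% to 0.492%. In OXA 2 of 8 skeletal and 2 of 6 smooth muscle markers were called lower. The part of epithelium and muscle in the enzyme values was not tested. Without D2, 14 members were lower and 4 higher. Without A5, D2 and D4, the 3 shallowest libraries, 14 were lower and 2 higher, Scd2 and Dgat1. Without D4 alone, 13 were lower and 3 higher.

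**Figure D4:**
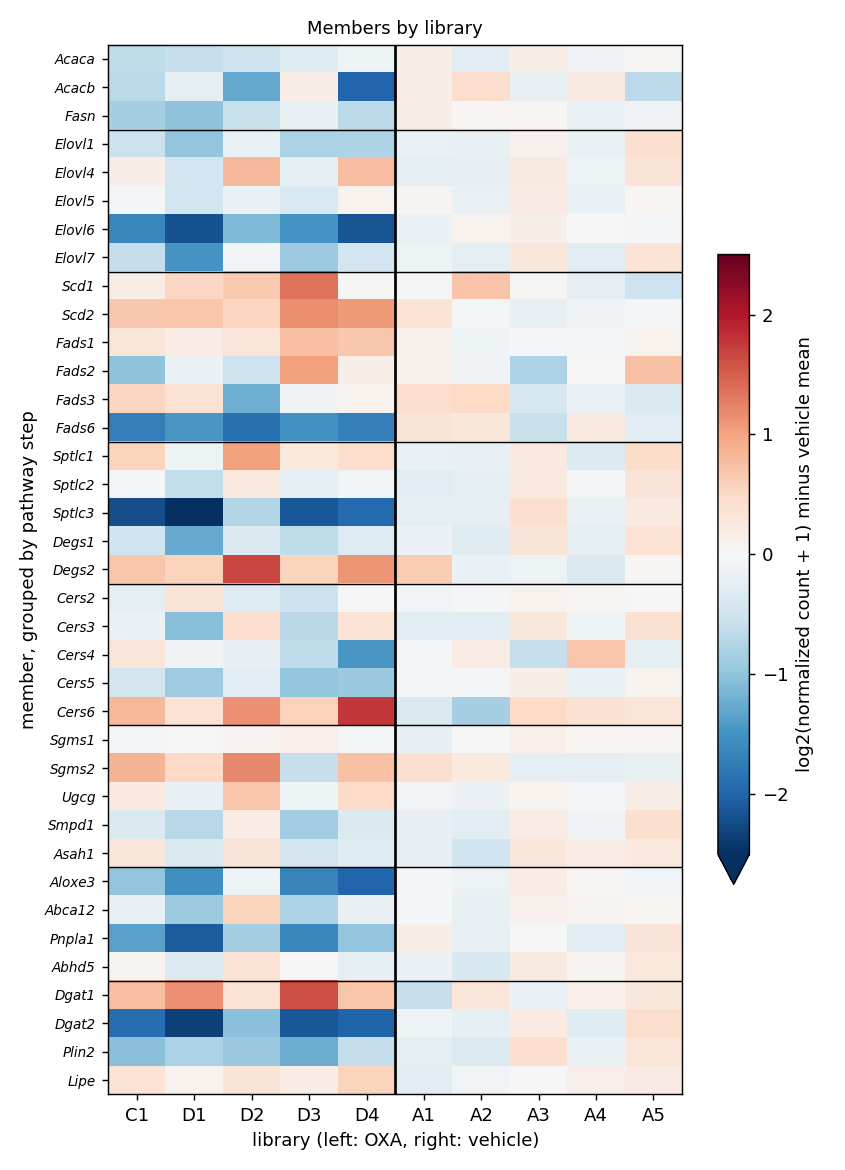
Each tested gene by library as log2(normalized count + 1) minus the vehicle mean of that gene (colour; OXA libraries left of the line, vehicle libraries right), grouped by pathway step in the order of the text. Values run from -3.00, in Sptlc3, to 1.77, and colours end at 2.5 either way. The D2 column is paler than the other OXA columns for Sptlc3, Dgat2, Aloxe3 and Elovl7.

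Promoter windows from RefSeq (GRCm38.p6, 250 bases before to 50 after the annotated start) were matched for 30 of the 38 genes, all but Scd1, Scd2, Fads1, Elovl3, Asah1, Aloxe3, Dgat1 and Dgat2. They were searched on both strands for the sterol regulatory element TCACNCCAC, the E-box CACGTG and the NF-Y box ATTGG, letters associated with regulators of lipid synthesis. None of the 41 windows of these genes held TCACNCCAC, against 1.24% of all 32851 windows. At so low a share, its absence from 41 windows does not set these genes apart. The E-box letters were in 8 of the 41 (19.5%), against 7.15% of all windows, and the NF-Y letters in 16 (39.0%), against 37.4%. By gene, the E-box was found in 2 of 10 lower genes (Degs1 and Plin2), in 1 of 2 higher genes (Cers6) and in 5 of 18 uncalled genes with a window. A match is a run of letters and not a shown binding site. The windows below are those of Fasn, with 3 NF-Y matches of which the last pair overlaps, of Elovl6, with no match, and of Plin2 and Cers6, a lower and a higher gene that hold both an E-box and an NF-Y match (5′ to 3′ on the gene's strand, matches in capitals).
Fasn, chr11:120824498-120824797, minus strand: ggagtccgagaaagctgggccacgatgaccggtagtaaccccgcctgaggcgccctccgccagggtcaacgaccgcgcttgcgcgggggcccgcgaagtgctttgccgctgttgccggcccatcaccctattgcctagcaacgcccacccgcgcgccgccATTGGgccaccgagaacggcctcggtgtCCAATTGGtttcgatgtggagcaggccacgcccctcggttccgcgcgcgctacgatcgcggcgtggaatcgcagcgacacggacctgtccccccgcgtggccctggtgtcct
Elovl6, chr3:129532136-129532435, plus strand: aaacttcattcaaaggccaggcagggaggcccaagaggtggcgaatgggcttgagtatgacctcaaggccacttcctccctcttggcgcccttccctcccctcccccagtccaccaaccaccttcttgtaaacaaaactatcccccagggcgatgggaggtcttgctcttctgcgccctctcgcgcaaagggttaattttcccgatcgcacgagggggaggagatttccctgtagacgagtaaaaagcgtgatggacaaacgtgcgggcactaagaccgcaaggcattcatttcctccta
Plin2, chr4:86670010-86670309, minus strand: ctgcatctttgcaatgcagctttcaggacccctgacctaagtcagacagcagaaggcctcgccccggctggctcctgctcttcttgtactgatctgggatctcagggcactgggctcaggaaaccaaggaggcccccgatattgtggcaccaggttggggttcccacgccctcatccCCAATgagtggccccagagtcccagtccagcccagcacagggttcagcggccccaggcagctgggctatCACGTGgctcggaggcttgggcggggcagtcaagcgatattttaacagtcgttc
Cers6, chr2:68861191-68861490, plus strand: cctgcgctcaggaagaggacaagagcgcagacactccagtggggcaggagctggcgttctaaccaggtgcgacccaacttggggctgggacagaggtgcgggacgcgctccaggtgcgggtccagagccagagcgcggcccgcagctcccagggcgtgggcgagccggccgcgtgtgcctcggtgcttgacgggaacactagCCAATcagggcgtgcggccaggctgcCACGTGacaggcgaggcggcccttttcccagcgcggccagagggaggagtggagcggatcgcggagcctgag

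Other genes of the same pathways were counted in lists. In the list of fatty acid supply, elongation partners and regulators, 5 of 28 tested genes were higher and 5 lower (median -0.11, against -0.01 over all tested genes). These were 17.9% each way, near the 15.7% higher and 14.2% lower over all tested genes. The enzymes that work with the elongases in the chain-lengthening cycle differed in direction. Hacd2, a dehydratase of that cycle, averaged 213 ± 63.9 normalized counts in OXA and 723 ± 118 in vehicle (-1.79 ± 0.19, adjusted p = 1.85e-05). Tecr, its final reductase, averaged 2603 ± 485 in OXA and 5309 ± 716 in vehicle (-1.04 ± 0.17, adjusted p = 3.87e-04). The other 3 of the cycle are given after their values were seen. The dehydratase Hacd1 averaged 284 ± 82.0 in OXA and 177 ± 21.8 in vehicle, with no overlap, and rose (0.65 ± 0.18, adjusted p = 0.0133). Its OXA mean leans on D1, at 427 against 221 to 266 in the remaining OXA libraries. The call of Hacd1 in the fit without D1 was not looked at. Hacd3 and the ketoreductase Hsd17b12 were not called (adjusted p = 0.373 and 0.108). Nr1h2, the sterol-sensing receptor LXR-beta, fell by 1.05 ± 0.16 on the log2 scale, and Slc27a3, an acyl-CoA synthetase of the fatty acid transport family, rose by 1.82 ± 0.32 (adjusted p = 2.08e-04 and 6.97e-04). Srebf1, the transcription factor of fatty acid synthesis, also chosen after its values were seen, averaged 168 ± 34.2 in OXA and 224 ± 34.4 in vehicle and was not called (adjusted p = 0.0677). It passed without D3 or without A4 (lowest adjusted p = 0.0223).

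Among other sphingolipid genes 2 of 27 tested were higher and 6 lower (median -0.28), or 4 higher and 3 lower with libraries scaled to their totals. In the limma calls this was 7.41% higher and 22.2% lower, against 15.7% and 14.2% of all tested genes. Sptssb, a small activating subunit of serine palmitoyltransferase, had 60.3, 9.95, 109, 30.6 and 75.0 normalized counts in OXA libraries, against 949, 1154, 1694, 1188 and 1647 in vehicle libraries. No OXA library came near the vehicle range, and Sptssb fell by 4.86 ± 0.47 in log2 units (adjusted p = 7.90e-06). Acer1, the alkaline ceramidase of differentiated epidermis, fell by 1.59 ± 0.37 and the glucosylceramidase Gba2 by 1.13 ± 0.22 on that scale (adjusted p = 0.00525 and 0.00181). Psap, precursor of the saposins that assist lysosomal sphingolipid breakdown, rose by 0.54 ± 0.12 (adjusted p = 0.00526).

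The list of other acylceramide and corneocyte lipid genes had 7 of 11 tested lower (median -1.11) and 0 higher in limma, also at an unadjusted p under 0.05 and in edgeR and DESeq2; 14.2% of all tested genes were lower. In each of the 7 every OXA library was below every vehicle library, as in 10.4% of all tested genes. The list was chosen with earlier results of these data known, so its shares are a description and were not tested. Lipk and Lipm, acid lipase family members of differentiated keratinocytes, fell by 4.69 ± 0.62 and 1.73 ± 0.26 in log2 units (adjusted p = 8.51e-05 and 2.67e-04). Nipal4, whose human counterpart is mutated in congenital ichthyosis, fell by 1.11 ± 0.18 (adjusted p = 4.96e-04). Casp14, a protease that processes filaggrin rather than lipid, fell by 1.99 ± 0.31 (adjusted p = 3.50e-04). Chosen after their values were seen, Alox12b, the lipoxygenase that precedes Aloxe3, averaged 2108 ± 725 in OXA and 4292 ± 761 in vehicle, and Cyp4f39, the mouse counterpart of the human enzyme that hydroxylates ultra-long fatty acids, averaged 9.53 ± 6.65 in OXA and 35.1 ± 9.87 in vehicle. The third gene chosen that way, the phospholipase Pla2g2f, averaged 21.1 ± 17.2 in OXA and 102 ± 39.3 in vehicle. Of the differentiated epithelium markers 3 of 6 were also lower in OXA libraries, and their part in these values was not tested.

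Among other triglyceride and lipid droplet genes 4 of 24 tested were higher and 3 lower (median -0.02), or 6 higher and 2 lower with libraries scaled to their totals. The shares, 16.7% and 12.5%, were near those of all tested genes, 15.7% and 14.2%. Bscl2, the droplet assembly protein seipin, fell by 0.83 ± 0.18 and the phosphatidate phosphatase Lpin3 by 1.32 ± 0.32 in log2 units (adjusted p = 0.00291 and 0.00718). Gpat4, which starts glycerolipid synthesis, rose by 0.61 ± 0.12 and Soat1, which esterifies cholesterol for storage, by 1.79 ± 0.32 (adjusted p = 0.00190 and 9.21e-04). Without D1 this list had 5 lower genes. For comparison, cholesterol synthesis genes had 3 of 22 higher and 8 lower (median -0.17), or 13.6% and 36.4%. Fdps, Dhcr7, Sc5d and Tm7sf2 fell by 0.98 ± 0.23, 0.83 ± 0.21, 0.50 ± 0.13 and 1.57 ± 0.42 on that scale.

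**Figure D5:**
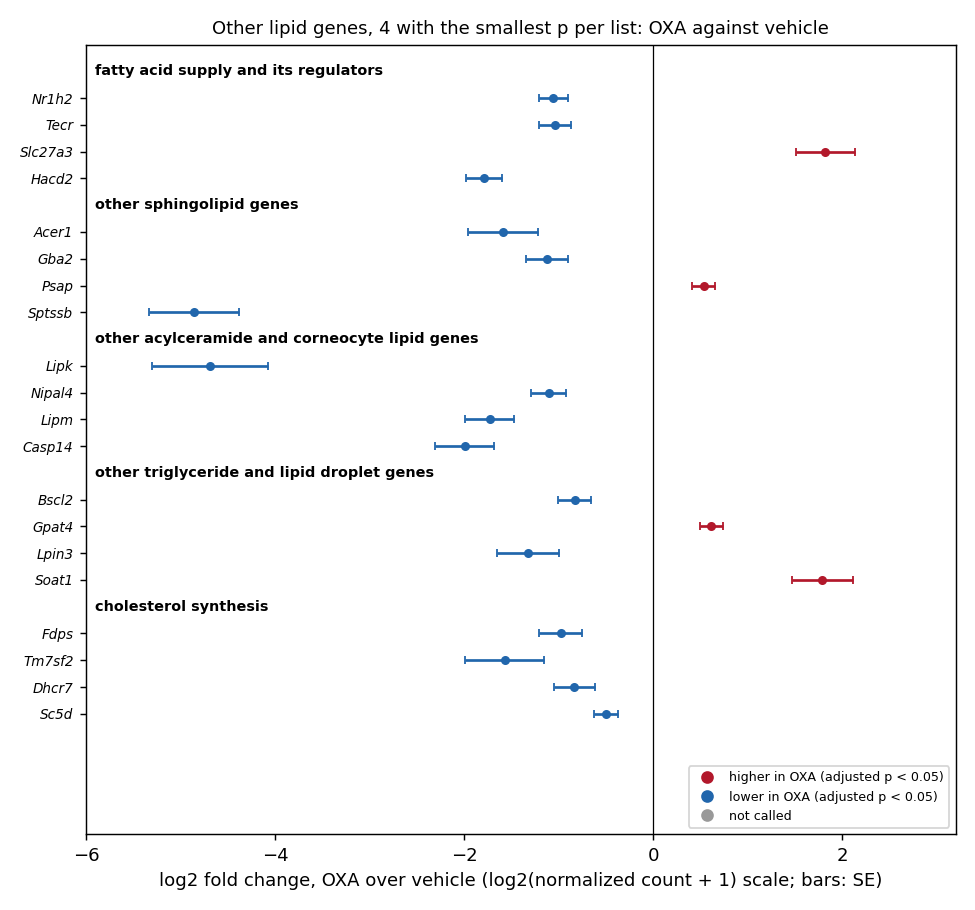
Log2 fold change, OXA over vehicle, of the 4 genes with the smallest p in each list of other lipid genes (points are limma estimates on the log2(normalized count + 1) scale, bars are standard errors, n = 5 per group). Sptssb and Lipk, at -4.86 and -4.69, lie farthest from 0, and Slc27a3, Psap, Gpat4 and Soat1 are the genes on the higher side.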

How the data were processed

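RNA of whole esophagus was measured by CEL-Seq on an Illumina sequencer after TRIZOL extraction, per the labels' protocols. The authors deposited a normalized signal: the low values show gene counts divided by a size factor for the library, to 2 decimals. Per the submitters' processing notes, which state no roles, GRCm38 and the tools DESeq2 1.18.1, HTSeq 0.11.2, Trim Galore, Bowtie2 2.2.6, FastQC 0.11.5, TopHat2 2.1.0 and cutadapt 1.10 were used. Not given in the sources used here are the annotation, the strand setting and any molecular identifiers; intervals and floors cover counting error only.

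Divided by the value of 1 read, 100% of entries in every library were whole numbers (tolerance 0.006). From the deposited values, limma 3.58.1 (R 4.3.3, trend) was fitted two-sided on log2(value + 1), which understates changes of low genes, for genes with a mean of at least 5. Errors of group means are SD and those of fold changes SE. Because the values are normalized, edgeR 4.0.16 quasi-likelihood and DESeq2 1.42.0 on recovered reads were alternatives, 2 of 23 tried; over all 14712 genes edgeR called 2411 higher and 1972 lower, against 2309 and 2085 in limma. Title letters are nested in treatment, so no batch or pairing was fitted. No exact permutation test was run, since Elovl3, at 0 throughout, was the only member under the filter. The limma fit was tested on simulated data.

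Members and lists were chosen with earlier results of these data known. The rule named all members and the 4 genes of smallest p per list, with marker genes as counts and sums; the other genes named, among them Srebf1, Hacd1 and single markers such as Plin1, were chosen after their values were seen. Overlap and 3′ end sharing were read from GENCODE M21 (GRCm38), with 36-base runs in the last 500 bases of protein-coding transcripts.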

Additional observations from a re-analysis of the deposited data

Results flagged for a closer look

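Groups of 5 libraries were examined for members and for named genes of the lists, other than Hacd1, Hacd3 and Hsd17b12. In 8 of 122 groups, 1 library lay far from the other 4. The gap to its nearest neighbour was over 0.71 of the group's range. Chance gives about 1 in 20. In OXA, D2 was the high library for Sptlc3 (164.75 against 33.4 to 70.2 normalized counts, a gap of 0.720 of the range), for Dgat2 (768 against 316 to 424, 0.761) and for Lpin3 (194 against 43.4 to 86.3, 0.715). D3 was the high OXA library for Srebf1 (227 against 139 to 161, 0.747). In vehicle, A1 was high for Scd2 (1089 against 756 to 838, 0.753), A3 for Gba2 (228 against 164 to 177, 0.798) and A5 for Nipal4 (321 against 223 to 250.4, 0.717). A5 was low for Soat1 (10.02 against 33.1 to 39.0, 0.799). Without D2, Sptlc3 stood at -2.33 and Dgat2 at -2.09 on the log2 scale, both further from 0 than with it.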

How the results depend on the processing

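Of 17 called members, 12 kept their call and direction under each of 23 alternatives (pseudocounts, filters, scalings, edgeR, DESeq2, limma without trend, libraries left out): Fasn, Elovl1, Elovl6, Scd2, Fads6, Sptlc3, Cers5, Aloxe3, Pnpla1, Dgat1, Dgat2 and Plin2. Elovl7, Fads1, Degs1, Degs2 and Cers6 lost the call in 2 to 8 alternatives with no change of direction. Limma without trend ended those of Elovl7, Degs1 and Cers6 (adjusted p = 0.0655, 0.0636 and 0.0547), and no filter that of Fads1 (adjusted p = 0.0538). Of 20 uncalled members 14 were called in none. Higher members numbered 5, with 3 to 6 when 1 library was left out, 2 without A5, D2 and D4, and 2 without A3, A5, D2 and D4; fewer libraries entered these fits. Lower members numbered 10 to 14 in all alternatives. The 23 called list genes that were followed through the alternatives kept their calls. Hacd1 was not followed. Scaling to library totals moved the median log2 change of all genes to 0.11, against -0.01, and the share of higher calls among all genes to 65.4%, against 52.5%; among members it gave 6 higher and 12 lower.

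Signs turned only for 6 uncalled members, and the cause was not tested. Fads3 was 0.0621 with scaling to totals, 0.0288 with edgeR, 0.0321 with DESeq2, 0.18 without A5, D2 and D4 and 0.0120 without A3, A5, D2 and D4, and -0.21 to 0.23 with 1 library left out. Fads2 was 0.0016 with scaling to totals, 0.0306 with edgeR, 0.0242 with DESeq2 and 0.13 without A5, D2 and D4, and -0.38 to 0.12 with 1 library left out. Asah1 and Abhd5 were 0.0250 and 0.0985 with scaling to totals, and Abhd5 was 0.0669 without A3, A5, D2 and D4 and -0.13 to 0.0470 with 1 library left out. Elovl4 was -0.10 without A5, D2 and D4 and -0.000895 without A3, A5, D2 and D4. Sgms1 was -0.0319 to 0.0517 with 1 library left out. Depth limits Fads2, Acacb, Fads3, Sgms2 and the called Degs2, with under 100 reads in every library. It also limits the list genes Slc27a3 and Cyp4f39, with 4 to 55 and 2 to 64 reads per library.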
